A study of Mus musculus with 2 samples.

Results

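Among the genes with the highest signal ratios after retinoic acid treatment of cartilage cells, 8 outside the classic retinoid targets are described. These 8, which are not all such genes, are Tspan13, Pamr1, Rerg, Prss35, Ttll11, Trp53i11, Prom1 and Inmt. They were chosen on the ratio of retinoic acid over control, either above 16 or from a control signal at background, so their ratios are a description and are not tested. They are 8 of 18193 named genes on the array, read by 12 of its 45101 probe sets, the groups of short probes that each report 1 signal. All 8 were measured, meaning that at least 1 of the arrays gave a signal above its own median, as did 11911 genes in all.

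Superficial zone cells form the surface layer of articular cartilage. The cells came from femur and tibia joints of ICR mice, 4 days after birth, and were grown in DMEM with 10% FBS. The control group (n = 1) received no retinoic acid and the other group (n = 1) received 10 μM retinoic acid, both for 24 h, and 1 Affymetrix Mouse Genome 430 2.0 array was hybridised per group. No genotype or transgene is given in the labels, nor the number of animals behind each culture or whether both cultures came from 1 preparation. With 1 array per group no difference has a replicate check and no p-value is given.

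Retinoic acid, the active form of vitamin A, binds nuclear receptors that sit on DNA as pairs with retinoid X receptors and change transcription of nearby genes. Their usual binding element is a direct repeat of a hexamer of 6 bases, and cells answer the ligand by switching on their own retinoid-clearing enzymes. In cartilage, retinoic acid is known for loss of the chondrocyte matrix. The 8 genes belong to none of these core steps. Tspan13 and Prom1 encode membrane proteins, Trp53i11 is named as a gene induced by p53, Pamr1 and Prss35 encode secreted proteins with trypsin-like domains, Rerg encodes a Ras-like small GTPase that limits growth, Ttll11 encodes an enzyme that adds glutamate chains to tubulin, and Inmt encodes a methyltransferase of tryptamine and related amines.

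Promoter sequences were examined for motifs, although the 8 genes were high together because the rule chose them so. RefSeq entries (GRCm38.p6) were matched for 5 of the 8 genes by symbol, with 6 start sites, 2 of them for Prom1; Pamr1, Rerg and Ttll11 had no entry in the table. The window ran from 250 bases before to 50 after each start, on both strands. The receptor hexamer was searched as AGGTCA and in variants spelled AGTTCA, then GGGTCA, and finally GGTTCA, which departs from AGGTCA at 2 bases. Direct repeats of any pair of them with spacers of 1, 2 or 5 bases were searched as DR1, DR2 and DR5. Among 8 classic retinoid targets with 14 entries in the table, the search found a hexamer in 4 and a DR5 in 2. The DR5 matches are shown with their hexamers in capitals because they are the pattern that was looked for in the 8 genes. The Rarb element lies at chr14:16575513-16575529, the gene being on the minus strand, and is read on the gene's strand. The Cyp26a1 element lies at chr19:37697776-37697792, with the gene on the plus strand, and is read on the opposite strand.
Rarb DR5: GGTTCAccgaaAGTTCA
Cyp26a1 DR5: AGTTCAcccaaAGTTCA

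None of the 6 windows of the 8 genes held a DR5, a DR2 or a DR1, which occurred in 0.0974%, 0.268% and 0.222% of all 32851 promoter windows. A single hexamer occurred in 2 of the 6 windows, against 43.7% of all windows. The Prom1 hexamer, GGTTCA on the strand opposite to the gene, lay 233 to 228 bases before the start at the second entry. The Tspan13 hexamer, also GGTTCA on the opposite strand, lay 37 to 42 bases after the start. The motif GGGCGG, to which Sp1-type factors bind, occurred before the start in 4 of the 6 windows, against 32.7% of all. In Tspan13, Prss35, Trp53i11 and the first Prom1 entry it lay between 62 and 48 bases before the start, a span where 4.19% of all promoters held it; this span was chosen after the matches were seen. Inmt held TATAAA at 80 to 75 and again at 69 to 64 bases before the start, a motif found in 13.6% of all windows. No match overlapped another. The absence of a repeat says only that these letters are not in these windows.

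The 250 bases before the start are shown for 4 of these entries, with matches in capitals: Tspan13 and Prss35 for GGGCGG (in Prss35 on the opposite strand), Inmt for its pair of TATAAA matches, and the second Prom1 entry for the receptor hexamer. Their positions are chr12:36042479-36042728 on the minus strand for Tspan13, chr9:86743383-86743632 on the plus strand for Prss35, chr6:55174991-55175240 on the minus strand for Inmt, and chr5:44094769-44095018 on the minus strand for Prom1, all in GRCm38.p6.
Tspan13: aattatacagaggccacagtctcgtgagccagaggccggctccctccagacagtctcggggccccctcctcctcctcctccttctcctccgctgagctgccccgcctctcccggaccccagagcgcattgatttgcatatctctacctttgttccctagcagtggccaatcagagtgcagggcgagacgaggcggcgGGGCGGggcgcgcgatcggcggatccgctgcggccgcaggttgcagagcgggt
Prss35: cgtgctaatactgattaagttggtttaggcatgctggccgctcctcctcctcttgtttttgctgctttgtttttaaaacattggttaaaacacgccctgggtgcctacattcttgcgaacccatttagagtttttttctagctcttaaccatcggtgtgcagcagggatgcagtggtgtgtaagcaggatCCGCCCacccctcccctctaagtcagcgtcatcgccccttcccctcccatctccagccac
Inmt: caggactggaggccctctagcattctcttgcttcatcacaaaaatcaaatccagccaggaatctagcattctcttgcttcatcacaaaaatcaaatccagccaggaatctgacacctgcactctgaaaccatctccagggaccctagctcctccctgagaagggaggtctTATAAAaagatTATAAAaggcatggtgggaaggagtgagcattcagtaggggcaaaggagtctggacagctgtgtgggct
Prom1, second entry: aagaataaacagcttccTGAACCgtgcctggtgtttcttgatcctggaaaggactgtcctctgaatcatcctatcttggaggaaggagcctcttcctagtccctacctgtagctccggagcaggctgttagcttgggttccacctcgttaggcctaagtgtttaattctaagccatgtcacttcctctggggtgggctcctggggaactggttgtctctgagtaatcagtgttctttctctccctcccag

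The arrays were alike on technical measures. Median signals were 26.5 on the control and 29.7 on the retinoic acid array, in arbitrary MAS5 units, and these medians served as the floor below which a signal was not read. The Actb probe sets gave a 3′ to 5′ signal ratio of 1.29 on the control and 1.25 on the retinoic acid array, and the Gapdh probe sets one of 0.824 and 0.839. Hybridisation spike-ins differed between the arrays by a median ratio of 1.04 (16 probe sets, range 0.863 to 1.15). Of 10 chondrocyte markers 10 were above the median on both arrays. Of 10 markers of the superficial zone and joint surface 9 were, Cilp being below on both. This is a weak criterion of cell identity: of 9 skeletal muscle markers 7 were above the median in control and 6 with retinoic acid. Where a gene had several probe sets, their log2 ratios scattered with an SD of 0.30 (4993 genes). It covers scatter within the same RNA and not the difference between cultures.

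The 8 genes had far lower signals in control than with retinoic acid. Control signals ran from 12.2 (Inmt) to 163 (Prss35) and retinoic acid signals from 572 (Prom1) to 3209 (Prss35). The median log2 ratio of the 8 was 4.42, with a range of 4.04 to 6.42 whose upper end is the bound for Inmt, against 0.017 over all measured genes. All 8 were at least 16-fold higher, Inmt as a bound, where 0.176% of measured genes (21 of 11911) were. The rule had chosen them for a ratio above 16 or a rise from background. The 7 genes above the median on both arrays had control signals from 28.9 to 163. Of 3523 genes above both medians in that control range, 354 (10.0%) were higher by 2-fold or more and 11 (0.312%) by 16-fold or more, 7 of these 11 being from the present set and the other 4 Cyp26b1, Dio2, Ntn1 and Twist2.

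**Figure D1:**
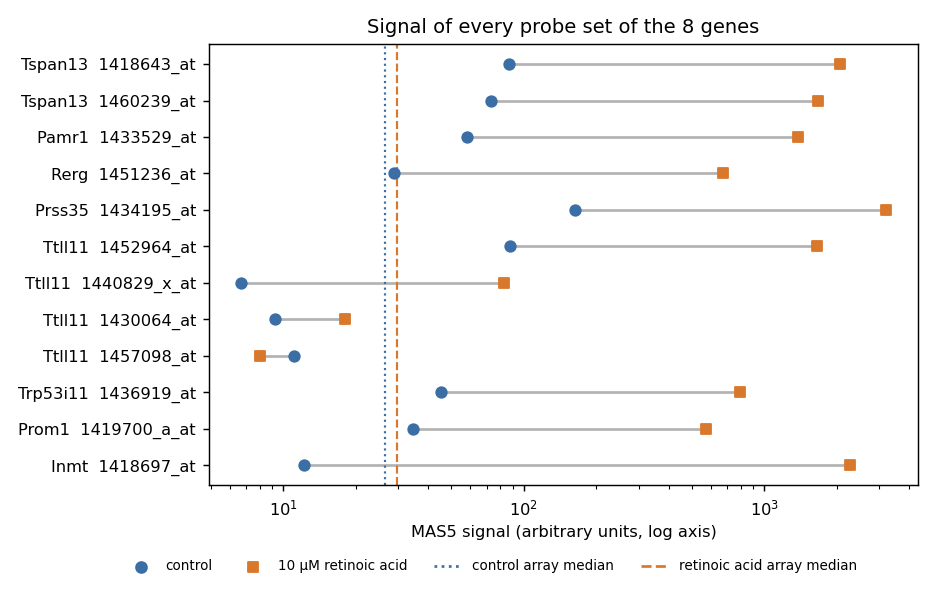
MAS5 signal (arbitrary units, log axis) of each of the 12 probe sets of the 8 genes on the control array (circles) and the retinoic acid array (squares), with each array's median as a vertical line. For 10 of the 12 probe sets the retinoic acid signal lies above its array's median; 2 probe sets of Ttll11 lie below the medians on both arrays.

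Among the membrane proteins, Tspan13 was read by a pair of probe sets that gave nearly the same ratio. It is a tetraspanin, a family of proteins that cross the membrane several times and gather other membrane proteins into clusters. Its probe set 1418643_at read 86.8 in control and 2067 with retinoic acid, a 23.8-fold difference. The second, 1460239_at, read 72.8 and 1673, a 23.0-fold difference. Both probe sets were designed on the same transcript sequence, so they share their target, and their log2 ratios of 4.57 and 4.52 differed by less than the SD between probe sets.

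Prom1 encodes prominin 1, a glycoprotein of membrane protrusions that is used as a marker of stem and progenitor cells. Its 1 probe set read 34.7 in control, only 1.31 times that array's median, and 572 with retinoic acid, 19.3 times the median. The difference was 16.5-fold, the smallest of the 8. Trp53i11 read 45.1 in control and 791 with retinoic acid, a 17.5-fold difference from 1 probe set. Both control signals were close enough to background that the size of these folds depends on how low signals are treated.

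Among the secreted proteins, Prss35 was clearly above the median already in control. It belongs to the trypsin family but is thought to lack protease activity. Its probe set read 163 in control and 3209 with retinoic acid, a 19.6-fold difference from a control signal 6.16 times the median. Pamr1 carries a trypsin-like domain together with CUB, EGF-like and sushi domains and is named for muscle regeneration. It read 58.2 in control and 1379 with retinoic acid, a 23.7-fold difference, and 11.3-fold with the floor at the 70th percentile.

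Rerg, a small GTPase named for its regulation by estrogen and its inhibition of growth, read 28.9 in control and 671 with retinoic acid, a 23.2-fold difference. Its control signal was 1.09 times the array's median, the lowest of the genes above that median on both arrays in this set. Its fold is therefore nearly a bound.

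Inmt transfers methyl groups from S-adenosylmethionine to tryptamine and other amines. It was below the median in control, with a signal of 12.2, and read 2272 with retinoic acid, 76.5 times that array's median. Against the control median it was at least 85.7-fold higher. This bound depends on the floor: it was 18.7-fold with the floor at the 70th percentile, and the ratio of the deposited signals was 186. Of all measured genes only Cyp26b1, Dio2 and Cyp26a1 had a higher ratio or bound.

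Ttll11 was read by 4 probe sets that differed widely. It is one of the polyglutamylases, which build side chains of glutamate on microtubules. The brightest of its 4 probe sets, 1452964_at, read 87.9 in control and 1661 with retinoic acid, an 18.9-fold difference. Probe set 1440829_x_at, of a kind whose probes may also bind other transcripts, read 6.67 and 82.6, at least 3.12-fold higher. The other two were below the median on both arrays, 1430064_at at 9.27 and 18.1 and 1457098_at at 11.1 and 8.02. The 18.9-fold value thus rests on 1 of 4 probe sets; the 4 were designed on different transcript sequences.

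**Figure D2:**
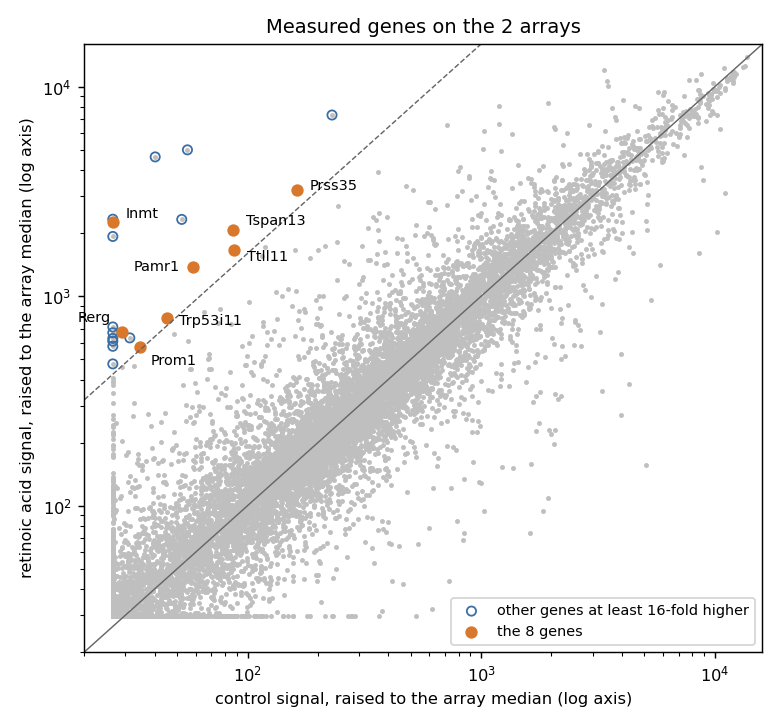
Retinoic acid against control signal of each of the 11911 measured genes (both axes log, signals below an array's median raised to it), with the line of equality and a dashed line at 16-fold. The 8 genes (filled) lie on or above the dashed line beside 13 other genes (open circles); Inmt sits on the control floor.

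The threshold of 16-fold was passed by 21 genes. Besides the 8 these were the classic retinoid targets Cyp26b1, Cyp26a1, Rarb and Tgm2, and further genes that are not on the classic list either. The latter were Dio2, Ntn1, Twist2, Lepr, Lgr6, Csn3, Lcp2, Gzme and Hs3st1. Ordered by ratio or bound, Inmt was at rank 4, Tspan13 at 10, Pamr1 at 12 and Rerg at 13. Prss35 was at 17, Ttll11 at 18, Trp53i11 at 20 and Prom1 at 21. Of the 21 genes 9 carry a bound, Inmt among them, so this order mixes ratios with bounds and depends on the floor. Just inside the threshold lay Prss35 (19.6-fold), Ttll11 (18.9-fold), Hs3st1 (at least 17.9-fold, not one of the 8), Trp53i11 (17.5-fold) and Prom1 (16.5-fold). Just outside lay Lrch2 (15.8-fold, 29.1 to 460) and Mamdc2 (15.5-fold, 35.4 to 551). The next were bounds: Nppc (at least 15.4-fold, 9.09 to 407), Cldn11 (at least 14.9-fold, 9.86 to 394) and Pdk4 (at least 14.6-fold, 24.2 to 388). A bound under 16 does not place a gene outside the threshold. The count of 21 depends on the floor: it was 53 with no floor, 31 with the 30th percentile and 8 with the 70th. The step from Prom1 to Lrch2, 4.04 to 3.98 in log2 ratio, is smaller than the SD between probe sets of 1 gene. Adjacent genes from Tspan13 to Prom1 in this order likewise differed by less than that SD.

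The relatives of each gene were read from lists of its family or pathway, leaving the 8 out. Over the 10 lists together, 197 genes were measured, of which 20 (10.2%) were higher and 13 (6.60%) lower by at least 2-fold. Over all measured genes the shares were 6.57% and 4.37%. The median log2 ratio of the 197 was 0.15. Of them 1, Lgr6, was at least 16-fold higher.

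Other tetraspanins were read beside Tspan13. By 2-fold or more, 1 of 23 other measured members was higher and 1 lower. Their median log2 ratio was 0.38. Tspan11 was 2.62-fold higher (39.3 to 103). Tspan2 was 5.91-fold lower (206 to 34.8). Tspan31 and Cd9, a regulator of cell fusion and adhesion, were within 2-fold at 2635 to 2968 and 2187 to 2360.

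Among the enzymes that write and erase tubulin modifications, 14 were measured beside Ttll11. By 2-fold or more, 1 of these was higher and 0 lower, and their median log2 ratio was 0.32. The 1 was Vash2, which encodes a tubulin carboxypeptidase that removes tyrosine (3.50-fold, 70.7 to 247). The glutamate-adding relatives Ttll4, Ttll5 and Ttll7 were at 1.32-fold and 1.37-fold higher and 1.22-fold lower. Of 33 measured genes of the primary cilium, an organelle that carries such tubulin marks, 1 was at least 2-fold higher, the transcription factor gene Rfx3 (2.19-fold, 30.6 to 66.9), and 0 lower.

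Of 24 other measured Ras-like GTPases 1 was at least 2-fold higher, Rasl11a (3.41-fold, 95.2 to 325), and 0 were lower by that much. The median log2 ratio of these relatives of Rerg was 0.27. Rerg is named for estrogen, and of 11 measured estrogen receptors and targets 0 were at least 2-fold higher and 1 was lower, Stc2, which encodes a secreted glycoprotein hormone (2.72-fold, 484 to 178). The estrogen receptor gene Esr1 was 1.49-fold higher (109 to 162).

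Trp53i11 is named for p53, and of 24 other measured genes of the p53 list 2 were higher and 1 was lower by 2-fold or more. Their median log2 ratio was −0.069. Trp53inp1 was 2.68-fold higher (1032 to 2765) and Trp53inp2 2.36-fold higher (449 to 1061), and the death receptor gene Fas was 2.11-fold lower. Within 2-fold the list went both ways. The p53 targets Cdkn1a, a cell cycle inhibitor, and Mdm2, the ligase that degrades p53, were 1.30-fold and 1.34-fold lower. Sesn2 was 1.97-fold and Bbc3 1.64-fold lower, whereas Perp was 1.98-fold, Gadd45a 1.97-fold and Zmat3 1.97-fold higher. Trp53i13, another gene of this list, was 1.73-fold lower.

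Beside Inmt, 12 other small-molecule methyltransferase and methionine cycle genes were measured. By 2-fold or more, 0 of these were higher and 0 lower, and their median log2 ratio was 0.049. Nnmt, which encodes the related nicotinamide methyltransferase, read 176 and 178. Ahcy, which encodes the enzyme that clears the by-product of methyl transfer, was 1.16-fold higher.

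For Prss35 and Pamr1, 15 other trypsin-like serine protease genes were measured. By 2-fold or more, 3 were higher and 1 lower, and the median log2 ratio was 0.42. Htra4 was 4.66-fold higher (48.3 to 225), Htra3 2.33-fold higher (444 to 1036), with 1 of its 2 other probe sets on the same side, and Prss53 2.46-fold lower. Prss23, the relative of Prss35, was 1.65-fold higher (5732 to 9472). The domain relatives of Pamr1 went both ways: of 22 measured genes with CUB, EGF-like or sushi domains 6 were higher and 4 lower by 2-fold or more. Nrp2, a co-receptor for semaphorins, was 4.97-fold higher (797 to 3959), whereas Pcolce2, an enhancer of procollagen processing, was 19.4-fold lower (1833 to 94.4) and Susd5 10.5-fold lower (2059 to 196).

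Prom1 was set beside its paralog and other surface markers of progenitor cells. Prom2 was below the median on both arrays. Of 19 other measured markers 5 were higher and 5 lower by 2-fold or more, and their median log2 ratio was 0.51. Lgr6, a receptor for R-spondins, was at least 25.2-fold higher (22.4 to 669) and Cd200 2.71-fold higher. Cd34, a marker of blood and mesenchymal progenitors, was 3.52-fold lower (127 to 36.2). Some genes stand in more than 1 list.

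**Figure D3:**
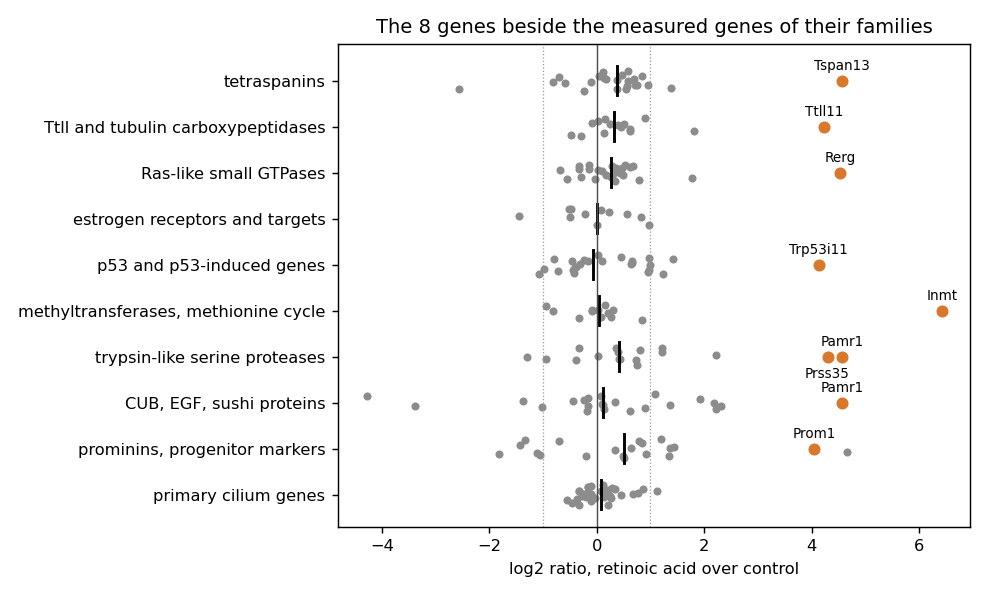
Log2 ratio of retinoic acid over control for the measured genes of the 10 family and pathway lists (points), with the median of the genes other than the 8 as a bar and the 8 genes in orange; dotted lines mark 2-fold. The bars lie between −0.069 and 0.51, and the 8 genes between 4.04 and 6.42, the last being the bound for Inmt.

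The genes next to the 8 on the chromosome were looked up in the RefSeq gene order of GRCm38.p6. Of 16 protein-coding neighbours 8 were measured, with 3 at least 2-fold higher and 0 lower, beside 6.57% higher among all measured genes. Snap91, next to Prss35, was at least 4.04-fold higher (19.0 to 107). Mindy4, next to Inmt, was 3.20-fold higher (59.7 to 191), and Fjx1, next to Pamr1, was 2.56-fold higher (31.4 to 80.2). The others were Me1, Dab2ip, Bzw2, Ndufa8 and Tspan18, within 2-fold, with Tspan18, a tetraspanin next to Trp53i11, 1.76-fold lower (81.1 to 46.2). Neither neighbour of Rerg, Pde6h and Ptpro, was above the median on either array. With 8 measured neighbours these counts are a description.

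Markers of chondrocytes and of other cells were read beside these values. The summed signal of 10 chondrocyte markers was 58867 in control and 26789 with retinoic acid, and 7 of the 10 were at least 2-fold lower. For 10 markers of the superficial zone and joint surface the sum was 16717 and 15131, with a median log2 ratio of −0.55. Among them Sfrp2 was 14.6-fold lower, while Clu was 5.97-fold and Vcam1 2.30-fold higher. For 10 markers of synovial and dermal fibroblasts the sum was 7247 and 12197, with 9 above the median in control and 8 with retinoic acid, 2 at least 2-fold higher (Fap, 6.01-fold, and Dpp4, 3.94-fold) and 3 lower. The median log2 ratio of this list was −0.29, and its sum was carried by Cxcl12 (4538 to 8060) and Fap (397 to 2387). For 9 endothelial markers it was 129 and 219, with 6 below the median on both arrays, Pecam1 and Cdh5 among them, while Cldn5 was at least 4.08-fold higher (22.7 to 108) and Kdr was above the median with retinoic acid only. Of 9 matched markers of blood cells 3 were below on both arrays, Ptprc among them (sum 547 and 696), while Mrc1 was at least 3.45-fold higher (19.9 to 91.5). Of 9 epithelial markers 5 were below on both (sum 453 and 275), while Trp63 was 3.05-fold lower (264 to 86.7) and Epcam 2.09-fold lower. Of 9 skeletal muscle markers 2 were below on both (sum 580 and 574), Myod1 and Pax7, while Des was 2.27-fold lower (114 to 50.3). In these lists 0 were higher by 2-fold or more. Of 7 matched markers of glia and neurons 3 were below on both (sum 195 and 113). Of 7 matched markers of bone cells 2 were (sum 1133 and 1641), with Acp5 6.45-fold higher and Sp7 3.01-fold lower. Of 5 matched adipocyte markers Fabp4 alone was measured, 11-fold higher (244 to 2689), while Adipoq, Lep, Cidec and Pparg were below the median on both arrays. In bulk RNA a change in the share of a cell type and a change per cell cannot be told apart, and the part of these markers in the values of the 8 genes was not tested.

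Low signals set how large the ratios came out. With the floor at the 70th percentile of each array, 3 of the 8 were still at least 16-fold higher (Inmt, Prss35 and Tspan13), and with the median added to each signal in place of a floor 4 were. All 8 were at least 2-fold higher under each of these settings. Rerg was then 5.53-fold and Prom1 4.71-fold higher with the 70th percentile. Prss35, from the highest control signal, lay between 17.1-fold and 19.6-fold under all settings. Ttll11 was 7.67-fold higher as the median of its measured probe sets.

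**Figure D4:**
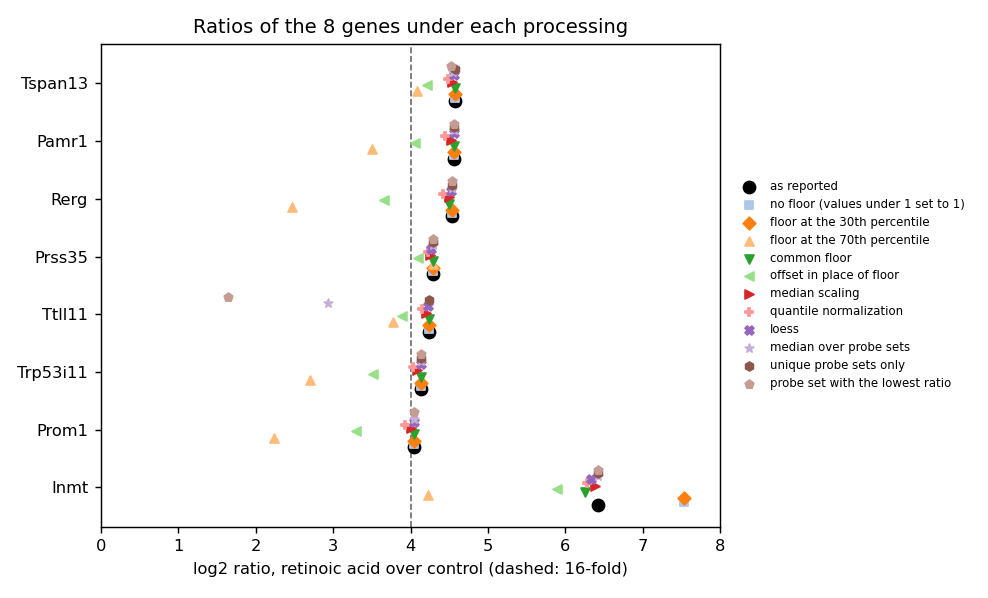
Log2 ratio of retinoic acid over control of each of the 8 genes under the reported processing (black) and 11 alternatives; the dashed line marks 16-fold. All points lie above 1. The lowest is Ttll11 at 1.64, with its measured probe set of the lowest ratio. Rerg, Trp53i11 and Prom1 reach 2.47, 2.70 and 2.24 with the floor at the 70th percentile.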

How the data were processed

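Total RNA (100 ng per culture) was labelled and hybridised to 1 array per group. The deposited values are intensities, linear signals of each probe set that the authors made with MAS5, per the submitters' processing notes; the version and scaling target were not given in the sources used here. The values were not rescaled. Names came from the platform annotation, and of 45037 that are not controls 34945 had 1 symbol, 932 several and 9160 none; only the first were used. Each array's median was the floor. Where a gene had several probe sets, the one with the highest mean log2 floored signal stood for it. Genes above the floor on 1 array only carry a bound ("at least"). No significance test was run. The 8 genes and all lists were chosen with earlier results of these data known.

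Named were the 8 genes, up to 3 genes past 2-fold per list, chromosomal neighbours, and 5 genes on each side of 16-fold; relatives within 2-fold, further marker genes and the other genes past 16-fold were named after their values were seen. Only the counting at 2-fold was tested on simulated data, with shifts larger than 2-fold given to genes well above both floors. The simulated noise was the scatter between probe sets of a gene. Shifts close to 2-fold and differences between cultures were therefore not tested. Counting at 16-fold and the bounds of faint genes were not tested in this way. The planned choice of paralogs by protein identity was not run. Alternatives were 5 treatments of low signals, 3 scalings and 3 rules for a gene's probe set. Python 3.11.15, numpy 2.4.6, pandas 2.3.3 and statsmodels 0.14.6 (loess) were used.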

Additional observations from a re-analysis of the deposited data

How the results depend on the processing

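No ratio of the 8 genes changed sign under any alternative tried. The genes were chosen on high ratios in these same 2 arrays, so this is no check of the rises. The median and the lowest of a gene's probe sets were taken only among those above the floor on at least 1 array. This left out 2 probe sets of Ttll11. The count at least 16-fold higher was 7 after quantile normalization, which put Prom1 below, and 7 with the median or the lowest of a gene's probe sets, which put Ttll11 below. With no floor, 2055 genes in all and 36 of the family genes were at least 2-fold higher, against 782 and 20 as reported. With the floor at the 70th percentile, 451 genes were at least 2-fold higher, 3 of the 8 were at least 16-fold higher and their median log2 ratio was 3.64; with the median signal as an offset 4 of the 8 were, with a median of 3.97. The offset raises every signal by construction, and the higher floor only the signals below it, so that Prss35 kept its ratio there. The scalings moved none of these counts by over 1.5 times. Prom1 has no value with unique probe sets only, since the name of its 1 probe set has an ending that this setting leaves out. Receptor hexamers were found in 1 window when the 50 bases after the start were left out. Of the other values recomputed, for single genes, lists, all genes together and promoter matches, 306 stayed within 1.5 times (counts) or within the SD between probe sets (log2 ratios) and 62 moved. The nearness of control signals to the array median limits the folds of Rerg, Prom1, Trp53i11, Pamr1 and Inmt. Ttll11 and Tspan13 also depended on the treatment of low signals. With the floor at the 70th percentile they were 13.7-fold and 17.0-fold higher, and with the offset 14.8-fold and 18.5-fold. No paired analysis was possible because each group has 1 array.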
